A study of Mus musculus with 33 samples.

Results

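A set of 10 neural stem cell markers was followed in embryonic stem cells lacking a base excision repair enzyme: Nes, Sox1, Sox21, Vim, Fabp7, Msi1, Hes5, Cdh2, Ncam1 and Prom1. They were chosen by name, as genes commonly used to recognise neural stem and progenitor cells, from the 37991 gene rows of the count table. Earlier results of these data were known when they were chosen. Of the 10 genes, 9 had a named row and Sox1 had none, so that every count below is over 9 genes. Another 786 rows have no name in the annotation used, and whether any of them counts Sox1 is not known. RNA was sequenced from 33 libraries of E14TG2a, a mouse embryonic stem cell line, at 3 stages: undifferentiated mESCs, embryoid bodies grown for 8 days (EBs), and EBs given 5 µM retinoic acid (RA) from day 4 (EBs + RA). Controls were clones #1, #4 and #7. Neil1 mutants were clones #7, #9 and #11, and Neil2 mutants clones #1, #11 and #14, each edited with CRISPR/Cas9 around the region of the catalytic domain. The Apex1 mutant was clone #46 alone, measured in technical duplicate, so that its p-values cover technical spread on the mutant side. Neil1 and Neil2 encode DNA glycosylases that remove oxidised bases and also cut the DNA strand there. Apex1 encodes an endonuclease that acts on abasic sites in the same repair pathway.

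Neural stem cells line the early neural tube, divide to renew themselves and give rise to neurons and glia. The markers fall into 4 groups by role. Nes (nestin) and Vim (vimentin) are intermediate filament proteins of the progenitor cytoskeleton. Cdh2 (N-cadherin) and Ncam1 are adhesion molecules at the cell surface, and Prom1 (prominin 1) is a membrane glycoprotein of apical protrusions. Hes5 is a transcriptional repressor switched on by Notch signalling, Msi1 (Musashi) an RNA-binding protein of progenitors, and Fabp7 the brain lipid-binding protein of radial glia. Sox1 and Sox21 are HMG-box transcription factors of the neural lineage. Several of the genes have wider expression, Vim and Cdh2 for example in mesenchyme, and RA is used to direct EBs towards neural fates. These samples are bulk RNA, in which fewer cells of a type and less RNA per cell cannot be told apart.

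Libraries held 21523742 to 48350904 counts on genes (median 26720028), and values are given as CPM, the count of a gene scaled to a common library size with TMM factors. Since the edits remove only a stretch of each target, the gene's total count is no check of the deletion. Neil1 had 7.67 to 9.83 CPM in control mESCs and 2.51 to 31.6 CPM in Neil1 mESCs, and Neil2 had 5.77 to 15.1 CPM in control and 5.49 to 9.54 CPM in Neil2 mESCs. Apex1 was higher in its mutant, with 72.0 to 75.4 CPM against 7.69 to 17.9 CPM in mESCs. The mESC library of Neil1 clone #11 stood apart in that 0.944% of its counts lay on chromosome X, against 3.14% to 4.58% in the other 32 libraries. Of the genes there 287 had counts, against 807 to 926 elsewhere, although its table lists the same genes, and why is not known. No marker lies on that chromosome, and results for Neil1 mESCs are given with and without this library.

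The place of Sox1 on NCBIM37, the build of the counts, was found by matching its RefSeq promoter (GRCm38.p6, plus strand), which matched the genome 1 time with a start site at position 12395519 of chromosome 8. The match lies within the span of Gm5607 (17 to 73 counts per library), which has no exon there, so that this row does not measure Sox1. A miRNA row, AC102525.1, lies downstream within the span of Sox1 and held 0 to 3 counts per library. The 250 bases before the start site (chr8:12395269-12395518) are shown because they fix the position of the marker without a named row, and they held none of the motifs searched below.
Sox1: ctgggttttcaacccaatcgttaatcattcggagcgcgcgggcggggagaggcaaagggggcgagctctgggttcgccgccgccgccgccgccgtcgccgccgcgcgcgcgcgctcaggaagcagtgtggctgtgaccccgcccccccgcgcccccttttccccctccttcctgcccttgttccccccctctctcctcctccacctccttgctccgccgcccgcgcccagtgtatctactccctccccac

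Levels were compared between markers in control cells. Per kilobase of exon, Vim was the most abundant marker at each stage, with 102 ± 14.6 CPM per kb in mESCs, 157 ± 46.3 in EBs and 224 ± 57.7 in EBs + RA (mean ± SD, n = 3 clones). In mESCs the next was Msi1 at 5.27 ± 1.81 CPM per kb, followed by Ncam1, Nes and Prom1, whose ranges overlapped, then Sox21 at 1.42 ± 0.125 and Cdh2 at 0.810 ± 0.0245. Fabp7 and Hes5 were at the bottom and rested on 0 to 3 counts per control mESC library. Of the 9 markers, 7 passed the filter on low counts in mESCs, before any differentiation, and Fabp7 and Hes5 did not. In EBs + RA, Msi1 (27.8 ± 9.17 CPM per kb), Cdh2 (21.2 ± 5.50) and Nes (20.6 ± 2.87) followed Vim. Msi1 overlapped with Cdh2 and Cdh2 with Nes, while Sox21 came last at 1.05 ± 0.483 CPM per kb.

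**Figure D1:**
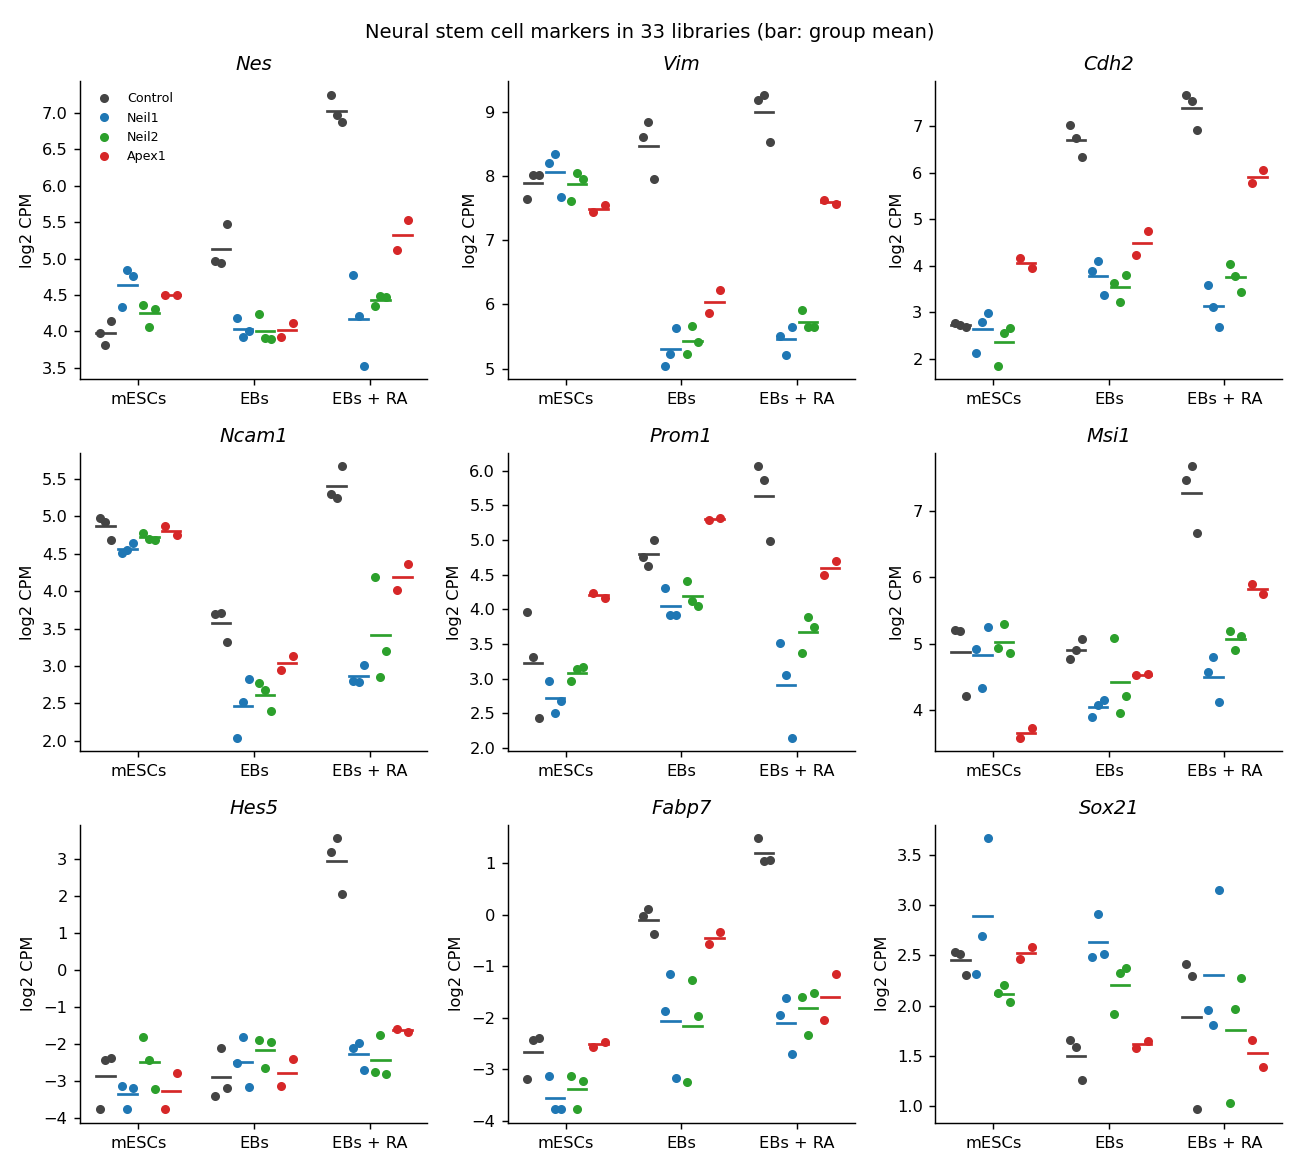
Level of the 9 measured markers in each of the 33 libraries, as log2 CPM with a prior count of 2 (y axis), by stage (x axis) and genotype (colour). Points are libraries and bars group means; in EBs + RA the control libraries lie above all mutant libraries for every gene except Sox21.

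When control mESCs formed EBs, 5 markers rose and 2 fell. Among all 15799 genes tested, 38.7% were called, with 18.5% that rose and 20.2% that fell. Cdh2 had 6.72, 6.56 and 6.33 CPM in mESCs of clones #1, #4 and #7, and 130, 107 and 80.4 CPM in EBs. The groups lay far apart, and Cdh2 rose by 3.98 on the log2 scale (SE 0.18, FDR 2.05e-06, where FDR is the Benjamini-Hochberg adjusted p of edgeR's quasi-likelihood test). Fabp7 rose by 3.21 (SE 0.48, FDR 0.000864) from 1, 3 and 3 counts in mESCs, so that its fold change is imprecise. It passed the filter on low counts through the EB libraries, where it is higher. Prom1, Nes and Vim rose by 1.42 (SE 0.32, FDR 0.00713), 1.14 (SE 0.18, FDR 0.00114) and 0.58 (SE 0.21, FDR 0.0572). Vim missed the limit with the clone as a block (FDR 0.102) and without control clone #1 or #4 (FDR 0.257 and 0.255). Ncam1 fell by 1.32 (SE 0.16, FDR 0.00025) and Sox21 by 1.00 (SE 0.23, FDR 0.00739), the latter not without clone #4 (FDR 0.111). Msi1 had a difference of −0.06 (95% interval −0.60 to 0.49), and Hes5, with 0 to 4 counts per library at both stages, was not tested.

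RA raised 7 of the 9 markers in control EBs, and none fell. Of all 15919 genes tested, 44.1% were called, with 23.3% that rose and 20.7% that fell. Hes5 had 0.0216, 0.156 and 0.0368 CPM in control EBs (1, 4 and 1 counts) and 8.98, 11.7 and 4.05 CPM in EBs + RA (279, 317 and 123 counts). Each RA-treated clone lay above each untreated clone, and the fitted rise was 7.00 on the log2 scale (SE 0.65, FDR 6.06e-05), the largest among the 9. Hes5 passed the filter on low counts through the RA-treated libraries, where it is high, so that the size of its rise is imprecise. Msi1 went from 27.1, 29.8 and 33.4 CPM to 177, 205 and 102 CPM, and rose by 2.45 (SE 0.25, FDR 0.000123). Nes went from 31.3, 30.7 and 44.6 CPM to 153, 126 and 117 CPM, and rose by 1.92 (SE 0.17, FDR 4.38e-05). Neither gene's ranges overlapped. Ncam1 rose by 1.87 (SE 0.16, FDR 3.31e-05), and Fabp7, Prom1 and Cdh2 by 1.39, 0.93 and 0.72 (FDR 0.0033, 0.0156 and 0.0279). Prom1 missed the limit without clone #1 or #4 (FDR 0.139 and 0.124), as did Cdh2 without clone #4 (FDR 0.142). Vim gave 0.55 (SE 0.26, FDR 0.109) and passed with the clone as a block (FDR 0.000782) and without clone #7 (FDR 0.00171). Sox21 gave 0.55 (95% interval −0.29 to 1.39), and passed without clone #7 (0.78, FDR 0.0113), where 9 of 9 markers were called. Clone #7 had the lowest control value in EBs + RA for Hes5, Msi1, Prom1, Vim, Cdh2, Nes and Sox21, and the highest for Ncam1.

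The question of the main comparison was how the markers differ between mutant and control EBs + RA. In each of the 3 mutants 8 of the 9 markers fell, all except Sox21, and each of these 8 was lower in every mutant library than in every control library. The share of all genes whose groups separate in this way was not counted. Hes5 and Fabp7, among these 8, passed the filter on low counts through the controls. Among all genes tested, 41.1% were called in Neil1 (21.2% higher, 19.9% lower), 34.9% in Neil2 (18.3% higher, 16.6% lower) and 24.8% in Apex1 (13.9% higher, 10.9% lower). The median log2 fold change of the 9 markers was −2.84 in Neil1, −2.61 in Neil2 and −1.48 in Apex1, against 0.00, 0.00 and −0.02 over all genes. The 3 mutants were compared with the same control libraries, and the differences between Apex1 and the other mutants were not tested.

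Hes5 (ENSMUSG00000048001, chromosome 4 of NCBIM37 from 154335032 to 154336480) had the largest fitted change, and it passed the filter on low counts through the control libraries, where it is high. Against 8.98, 11.7 and 4.05 CPM in the controls it had 0.155, 0.180 and 0.0801 CPM in Neil1, 0.0741, 0.222 and 0.0696 CPM in Neil2, and 0.254 and 0.240 CPM in the Apex1 duplicates. Each mutant library held 2 to 7 counts, near the 0 to 4 counts of control mESCs and EBs, and the mutants did not overlap with the controls. Hes5 fell by 5.85 on the log2 scale in Neil1 (SE 0.54, FDR 0.000283), by 6.00 in Neil2 (SE 0.60, FDR 0.000482) and by 5.02 in Apex1 (SE 0.59, FDR 0.00159). It was also called with no filter on low counts. Summed over libraries, 719 control counts stood against 12, 11 and 13 mutant counts, which is a ratio of 57.4 for Neil1 with a 95% interval of 32.6 to 112 that covers counting error only. Of the exon bases of Hes5, 433 are shared with an antisense row, and reads there would be set aside if counting ignored strand.

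Promoters are shown for the markers that both rose with RA and held a motif, so that the presence of motifs in them follows from the choice. Msi1, Cdh2 and Ncam1 also rose with RA and had no promoter given. RefSeq promoters of GRCm38.p6 were given for 7 of the 10 genes, with 2 for Prom1, and the 250 bases before each start site were searched on both strands. The motifs were TGGGAA (the core bound by RBPJ, the DNA-binding partner of Notch), ACAAAG and ACAATG (bound by SOX factors) and AGGTCA (bound by nuclear receptors, the class to which RA receptors belong). None of these letters overlapped another motif in the sequences shown, where capitals mark the matches. Hes5 lies at chr4:154960673-154960922 (plus strand), Fabp7 at chr10:57784673-57784922 (plus strand) and the Prom1 promoter with a match at chr5:44101737-44101986 (minus strand).
Hes5: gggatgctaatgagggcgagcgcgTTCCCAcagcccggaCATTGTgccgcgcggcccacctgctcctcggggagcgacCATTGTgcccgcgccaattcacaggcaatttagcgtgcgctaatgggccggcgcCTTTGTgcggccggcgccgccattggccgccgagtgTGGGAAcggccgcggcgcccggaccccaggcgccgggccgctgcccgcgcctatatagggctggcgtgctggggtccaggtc
Fabp7: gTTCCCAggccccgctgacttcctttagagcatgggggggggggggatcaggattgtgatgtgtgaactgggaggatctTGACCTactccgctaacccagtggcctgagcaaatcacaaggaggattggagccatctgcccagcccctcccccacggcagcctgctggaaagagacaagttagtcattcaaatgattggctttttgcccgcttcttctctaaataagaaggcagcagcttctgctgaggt
Prom1: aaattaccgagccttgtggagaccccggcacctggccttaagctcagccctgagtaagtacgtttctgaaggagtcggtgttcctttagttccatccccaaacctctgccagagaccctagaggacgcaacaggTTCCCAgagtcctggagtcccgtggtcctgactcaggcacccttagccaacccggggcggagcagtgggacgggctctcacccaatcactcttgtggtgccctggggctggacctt
The RBPJ core stood in the promoters of Hes5, Fabp7 and Prom1, 3 of 8, and in 21.6% of all 32851 promoters. Hes5 held it at 2 places, 82 to 77 and 226 to 221 bases before the start site, and was the only one of the 7 genes with ACAAAG (16.5% of all promoters) or ACAATG (10.7%). AGGTCA was found in Fabp7 alone (14.0% of all promoters). The promoters of Nes, Sox21, Vim and Sox1 held none of the 4 motifs. A match is a string of letters and does not show binding.

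The intermediate filament genes both fell. Nes (ENSMUSG00000004891, chromosome 3 from 87775000 to 87784373) had 153, 126 and 117 CPM in control EBs + RA. It had 27.4, 18.4 and 11.4 CPM in Neil1, 20.2, 22.2 and 22.2 CPM in Neil2, and 34.6 and 46.0 CPM in Apex1. All 8 mutant libraries lay under the lowest control, and Nes fell by 2.81 (SE 0.30, FDR 0.000469), 2.61 (SE 0.14, FDR 0.000158) and 1.69 (SE 0.18, FDR 0.00121). Vim (ENSMUSG00000026728, chromosome 2 from 13495554 to 13504453) had 581, 618 and 369 CPM in controls, 45.5, 37.2 and 50.0 CPM in Neil1, 60.2, 49.9 and 49.9 CPM in Neil2, and 198 and 190 CPM in Apex1. Here too the groups did not overlap, and Vim fell by 3.59 (SE 0.24, FDR 9.46e-05), 3.30 (SE 0.22, FDR 0.000171) and 1.42 (SE 0.23, FDR 0.00519).

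Among the surface molecules, Cdh2 (ENSMUSG00000024304) had 205, 187 and 121 CPM in control EBs + RA. It had 11.9, 8.51 and 6.37 CPM in Neil1, 16.4, 13.7 and 10.8 CPM in Neil2, and 54.5 and 66.7 CPM in Apex1. Its falls were 4.28 (SE 0.30, FDR 0.000105), 3.65 (SE 0.26, FDR 0.000198) and 1.48 (SE 0.24, FDR 0.00486), with no overlap of mutants and controls. Ncam1 (ENSMUSG00000039542, chromosome 9 from 49310257 to 49607027) fell by 2.58 in Neil1 (SE 0.18, FDR 0.000101), by 1.89 in Neil2 (SE 0.33, FDR 0.00439) and by 1.20 in Apex1 (SE 0.18, FDR 0.00406), from 39.4, 37.8 and 50.6 CPM in controls. In Neil2, clone #1 stood above the others with 18.1 CPM, against 7.14 and 9.12 CPM. Prom1 (ENSMUSG00000029086, chromosome 5 from 44384864 to 44493271) had 66.8, 58.1 and 31.8 CPM in controls, and its mutant libraries lay between 4.36 and 26.0 CPM. It fell by 2.73 in Neil1 (SE 0.39, FDR 0.00186), by 2.03 in Neil2 (SE 0.28, FDR 0.00165) and by 1.09 in Apex1 (SE 0.29, FDR 0.0342). The Prom1 call in Apex1 was lost without control clone #1 (FDR 0.114), without either duplicate (FDR 0.253 and 0.147) and with the duplicates summed to 1 library (FDR 0.199).

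Msi1 and Fabp7 also fell. Msi1 (ENSMUSG00000054256, chromosome 5 from 115879608 to 115905707) had 177, 205 and 102 CPM in controls, 23.6, 27.8 and 17.2 CPM in Neil1, 36.6, 29.8 and 34.7 CPM in Neil2, and 59.7 and 54.0 CPM in Apex1. The falls were 2.84 (SE 0.29, FDR 0.000432), 2.26 (SE 0.25, FDR 0.000761) and 1.49 (SE 0.28, FDR 0.00871), the last one not without the first Apex1 duplicate (FDR 0.105). Fabp7 (ENSMUSG00000019874, chromosome 10 from 57504687 to 57508256) was the least abundant of the 8, with 2.74, 1.99 and 2.01 CPM in controls and 0.0801 to 0.377 CPM in the mutants, which rested on 2 to 11 counts. It passed the filter on low counts through the controls, and was also called with no filter. It fell by 3.67 (SE 0.43, FDR 0.000702), 3.33 (SE 0.39, FDR 0.000834) and 2.97 (SE 0.44, FDR 0.00363).

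Sox21 (ENSMUSG00000061517, chromosome 14 from 118632454 to 118636252) was the exception. It had 5.25, 4.82 and 1.88 CPM in control EBs + RA, 3.79, 3.43 and 8.85 CPM in Neil1, 1.96, 3.84 and 4.77 CPM in Neil2, and 3.09 and 2.53 CPM in Apex1. All 3 mutants overlapped with the controls, with log2 differences of 0.40 (95% interval −0.71 to 1.52), −0.18 (−1.21 to 0.84) and −0.49 (−1.48 to 0.50). The Apex1 value passed without control clone #7 (FDR 0.0162). An antisense row shares 713 of the exon bases of Sox21, as other antisense rows do 254 of Ncam1 and 188 of Prom1.

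**Figure D2:**
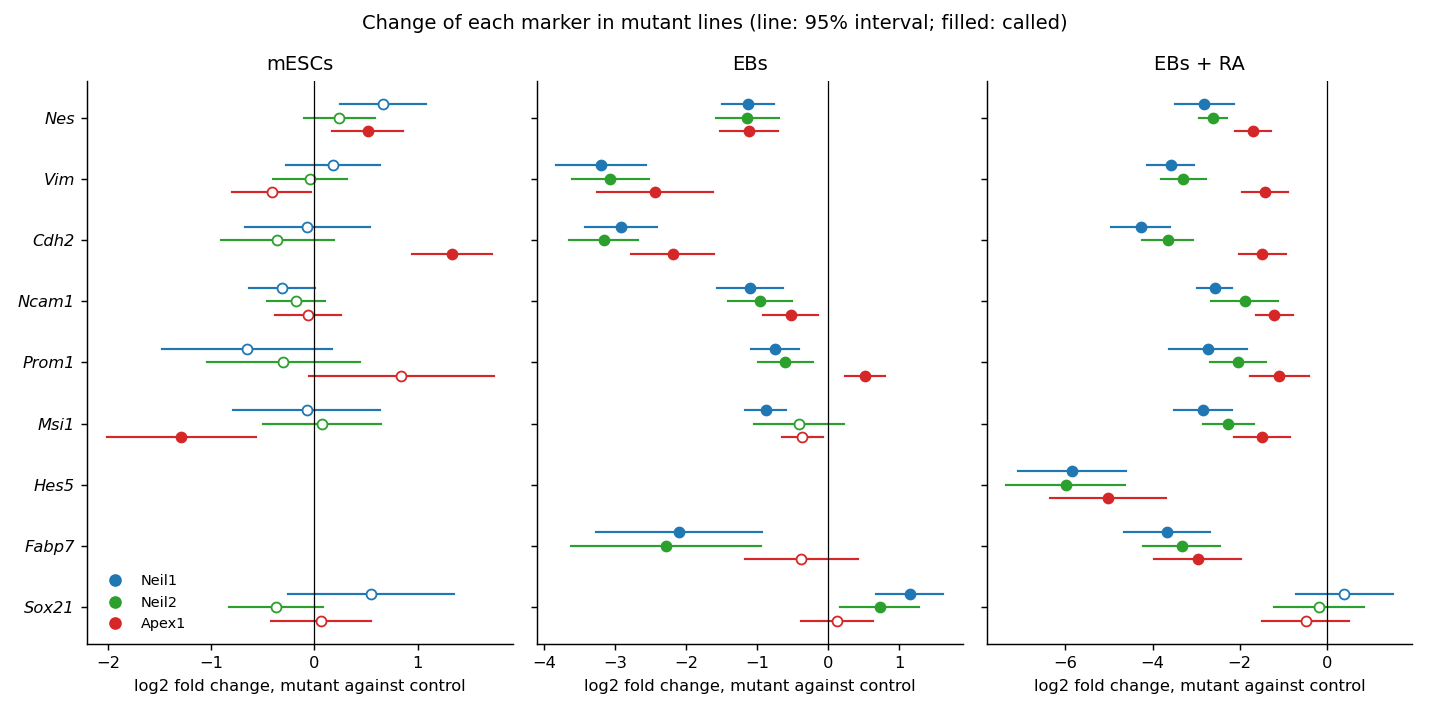
Log2 fold change of each marker in Neil1, Neil2 and Apex1 lines against control (x axis, points, with 95% intervals as lines) at the 3 stages; filled points passed an FDR of 0.1 and an absolute log2 fold change of 0.5, and genes without a point were not tested. In EBs + RA all points except those of Sox21 lie left of 0 and are filled.

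Without RA, the markers moved in both directions. In Neil1 EBs 7 of the 8 tested markers fell and Sox21 rose, against 13.1% lower and 10.4% higher, or 23.5% called, of all genes tested. In Neil2 EBs 6 fell and Sox21 rose, against 7.69% and 8.65%, or 16.3% called. In Apex1 EBs 4 fell (Nes, Vim, Cdh2 and Ncam1) and Prom1 rose, against 13.9% and 11.9%, or 25.8% called. Hes5 was not tested in EBs, where no library held more than 6 counts.

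Vim and Cdh2 showed the largest falls in EBs. Vim had 391, 459 and 247 CPM in control EBs, 32.9, 37.3 and 49.8 CPM in Neil1, 37.4, 50.7 and 42.4 CPM in Neil2, and 58.2 and 74.7 CPM in Apex1. It fell by 3.20 (SE 0.27, FDR 0.000232), 3.07 (SE 0.24, FDR 0.000227) and 2.44 (SE 0.32, FDR 0.00523). Cdh2 had 130, 107 and 80.4 CPM in control EBs and 14.7, 17.2 and 10.3 CPM in Neil1, 12.3, 9.26 and 13.8 CPM in Neil2, and 18.7 and 26.9 CPM in Apex1. It fell by 2.92 (SE 0.22, FDR 4.29e-05), 3.16 (SE 0.21, FDR 0.000116) and 2.19 (SE 0.24, FDR 0.00114). For both genes all mutant libraries lay below all controls, and the calls held in every fit that left out 1 library.

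Nes fell by 1.13, 1.14 and 1.12 in Neil1, Neil2 and Apex1 EBs (FDR 0.000628, 0.00739 and 0.00153), from 31.3, 30.7 and 44.6 CPM in controls to between 14.7 and 18.8 CPM in the mutants. Ncam1 fell by 1.09 (FDR 0.00309), 0.96 (FDR 0.0167) and 0.52 (FDR 0.0438). Its Apex1 call was lost without control clone #1 or #4, without either duplicate and with the duplicates summed (FDR 0.188). Fabp7 fell by 2.11 in Neil1 (SE 0.53, FDR 0.0133) and by 2.28 in Neil2 (SE 0.59, FDR 0.0377), from 42, 26 and 19 counts in the controls to between 1 and 9 counts. Fabp7 passed the filter on low counts through the controls in these fits. The Neil2 call was lost without control clone #1 or #4 or Neil2 clone #14 (FDR 0.126 to 0.137). In Apex1 EBs the Fabp7 difference was −0.38 (95% interval −1.17 to 0.42).

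Prom1, Sox21 and Msi1 differed in call or direction between the mutant EBs. Prom1 had 27.0, 24.7 and 32.0 CPM in control EBs, fell in Neil1 by 0.75 (FDR 0.00446) and in Neil2 by 0.60 (FDR 0.0502), and rose in Apex1 by 0.52 (FDR 0.0113) to 38.9 and 40.0 CPM. The Neil2 call was lost without control clone #1 or #7 or Neil2 clone #14 (FDR 0.135 to 0.180), and the Apex1 call without control clone #1 or #4 or the second duplicate. Sox21 had 3.07, 2.92 and 2.32 CPM in control EBs and 5.51, 7.47 and 5.66 CPM in Neil1, all above the controls, and rose by 1.15 (SE 0.22, FDR 0.0025). In Neil2 it had 3.71, 4.95 and 5.11 CPM and rose by 0.73 (SE 0.24, FDR 0.0911), a call that passed only without Neil2 clone #1 among the 6 fits that left out 1 library. Msi1 fell by 0.88 in Neil1 (FDR 0.00063). In Neil2 it gave −0.41 (95% interval −1.04 to 0.22), where clone #1 stood at 34.1 CPM against 15.4 and 18.4 CPM in the others, and it passed without that clone (FDR 0.00329). In Apex1 it gave −0.36 (FDR 0.0561), within the limit on fold change. Without control clone #1 or Neil2 clone #14, 4 of the 8 tested markers were called in Neil2 EBs in place of 7, and without control clone #1 or #4 or the second duplicate 3 were called in Apex1 EBs in place of 5.

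In undifferentiated mESCs few markers differed. Of the 7 tested in Neil1 and Neil2 mESCs none was called. Of all genes, 1.82% were called in Neil1 (1.03% higher, 0.784% lower) and 1.83% in Neil2 (1.4% higher, 0.429% lower). At an edgeR p below 0.05 before adjustment there was 1 marker in Neil1, Nes, and 0 in Neil2. The change of Nes was 0.66 (SE 0.18, FDR 0.153 in edgeR), and DESeq2 called it (FDR 0.0319) and no marker in Neil2. Nes had 15.7, 14.0 and 17.6 CPM in control mESCs and 20.0, 28.5 and 27.1 CPM in Neil1, all above the controls. Without Neil1 clone #11, whose library stood apart, no marker was called either. Without control clone #7, Nes (FDR 0.0601) and Prom1 (FDR 0.0588) were called in Neil1, and Prom1 in Neil2 (FDR 0.0817). Sox21 was highest in Neil1 clone #11, with 12.7 CPM against 4.91 and 6.41 CPM in the other Neil1 clones.

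In Apex1 mESCs, Cdh2 and Nes rose and Msi1 fell among 7 tested, against 7.87% higher and 9.07% lower, or 16.9% called, of all genes. Cdh2 had 17.7 and 15.3 CPM in the duplicates and rose by 1.33 (SE 0.16, FDR 0.0161). Nes, with 22.6 and 22.6 CPM, rose by 0.52 (SE 0.15, FDR 0.0677), and Msi1 fell by 1.29 (SE 0.31, FDR 0.0481), from 36.7, 36.6 and 18.4 CPM to 11.9 and 13.2 CPM. All 3 calls were lost without either duplicate and with the duplicates summed (FDR 0.253, 0.400 and 0.333 for Cdh2, Nes and Msi1), and those of Nes and Msi1 also without control clone #1 or #4. Cdh2 was thus above the controls in Apex1 mESCs and below them in Apex1 EBs.

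Whether the change between stages differed between genotypes was tested by the interaction of genotype and stage. From mESCs to EBs, Nes, Vim and Cdh2 had a lower change in each mutant than in control. Of all genes tested, 10.1%, 10.2% and 26.6% were called in Neil1, Neil2 and Apex1, with a lower change for 5.86%, 5.56% and 14.0% and a higher one for 4.23%, 4.67% and 12.6%. Nes rose in control and its mean log2 CPM changed by −0.61, −0.24 and −0.49 in the mutants, a difference of −1.78 (SE 0.26, FDR 0.00127), −1.40 (SE 0.25, FDR 0.00495) and −1.67 (SE 0.25, FDR 0.00113). For Vim the differences were −3.36, −3.05 and −2.06 (FDR 9.84e-05, 8.72e-05 and 0.00119), and for Cdh2 −2.83, −2.83 and −3.56 (FDR 0.000283, 0.000189 and 1.94e-05). These 9 calls held in every fit that left out a clone or duplicate at both stages. Ncam1 gave −0.76 in Neil1 (FDR 0.0947) and −0.80 in Neil2 (FDR 0.0481). The first was lost without control clone #1 or #4 or Neil1 clone #7 or #9, and the second without control clone #1 or #4 or Neil2 clone #14. Without Neil1 clone #11, whose mESC library stood apart, Sox21 was called in Neil1 (1.18, FDR 0.0733). Sox21 changed by 1.08 more in Neil2 (FDR 0.0499), and missed the limit with the clone as a block (FDR 0.121) and without control clone #1 or #4 or Neil2 clone #11 or #14. Msi1 changed by 0.89 more in Apex1 (FDR 0.0877), which was lost without control clone #1 or #4, without either duplicate and with the block (FDR 0.170). Without control clone #1 or #4 or Neil2 clone #14, 3 markers were called in Neil2 in place of 5.

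The response to RA, tested in the same way, was lower for 6 of 9 markers in Neil1 (Nes, Msi1, Hes5, Cdh2, Ncam1 and Prom1), 4 in Neil2 (Nes, Msi1, Hes5 and Prom1) and 5 in Apex1 (Fabp7, Msi1, Hes5, Ncam1 and Prom1), against 13.1%, 7.7% and 5.7% of all genes tested. It was higher for 16.5%, 7.31% and 10.0% of all genes, so that 29.6%, 15.0% and 15.7% were called. Hes5 entered this fit through control EBs + RA, with 1 to 7 counts in each other library, so that the size of its difference is imprecise. It differed by −6.66 (SE 1.19, FDR 0.00212) in Neil1, −7.28 (SE 1.07, FDR 0.000964) in Neil2 and −5.38 (SE 1.58, FDR 0.0508) in Apex1. Msi1 differed by −1.95, −1.87 and −1.14 (FDR 0.00155, 0.00985 and 0.0626) and Prom1 by −1.96, −1.45 and −1.63 (FDR 0.00931, 0.0159 and 0.0187). The mean log2 CPM of Prom1 rose by 0.84 with RA in control and changed by −1.14, −0.52 and −0.71 in the mutants. Nes differed by −1.67 in Neil1 and −1.49 in Neil2 (FDR 0.00645 and 0.00167) and gave −0.59 in Apex1 (FDR 0.202).

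Without Neil1 clone #11 at both stages, Sox21 (−1.38, FDR 0.0781) and Fabp7 (−1.79, FDR 0.0598) were also called in Neil1.

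Other RA responses were less steady. Cdh2 differed by −1.34 in Neil1 (FDR 0.0251), a call lost without control clone #4 (FDR 0.108) or Neil1 clone #9 (FDR 0.107), and Ncam1 by −1.47 (FDR 0.00305). With the clone as a block, Fabp7 also passed in Neil1 (−1.56, FDR 0.0769) and Ncam1 in Neil2 (−1.03, FDR 0.0521). The Prom1 call in Neil2 was lost without control clone #1 or #4 (FDR 0.113 and 0.121). In Apex1, Fabp7 differed by −2.61 (FDR 0.00995) and Ncam1 by −0.70 (FDR 0.0985, near the limit). Each of the 5 calls was lost in at least 1 of the 5 fits that left out a clone or duplicate at both stages. Fabp7 was called in 4 of these fits, Prom1 in 3, Hes5 in 2, Msi1 in 1 and Ncam1 in 0. Without the first duplicate 0 markers were called, without the second 1, without control clone #1 2, without clone #4 3 and without clone #7 8. Vim was not called for its response to RA in Neil1 (−0.37, FDR 0.462) and Neil2 (−0.24, FDR 0.698). In Apex1 Vim gave 1.01 (FDR 0.134) and Cdh2 0.69 (FDR 0.271).

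**Figure D3:**
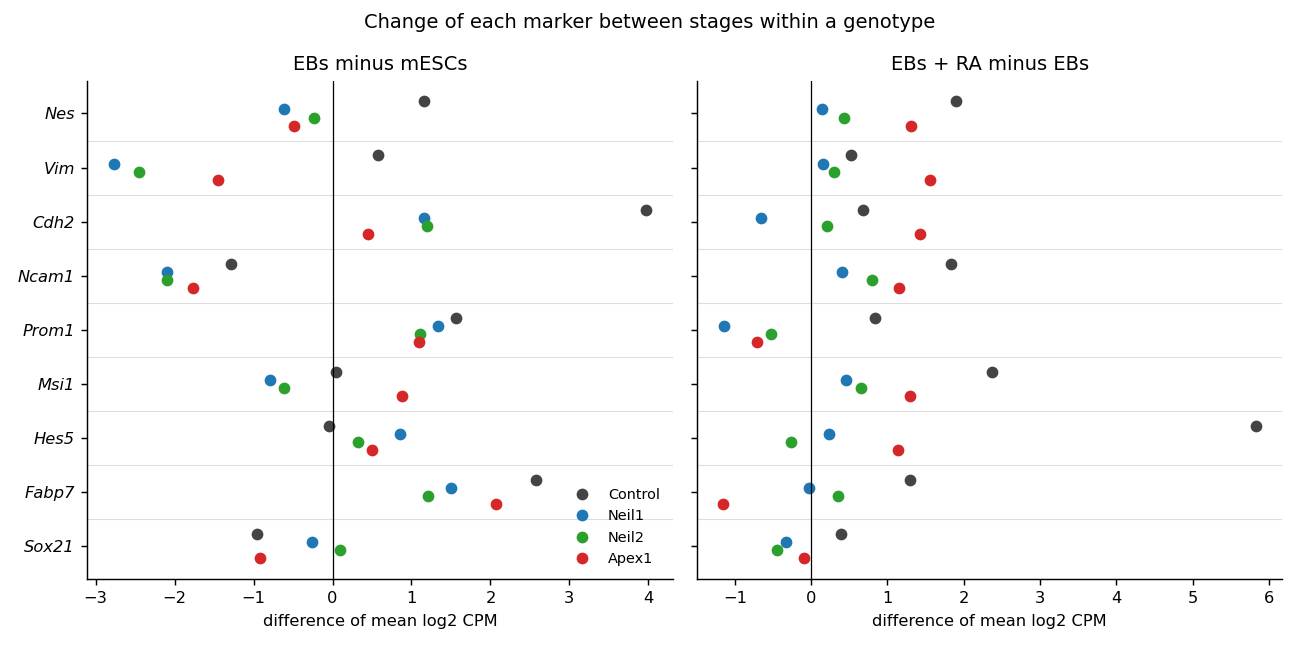
Difference of the mean log2 CPM between stages (x axis) for each marker within each genotype (colour), from mESCs to EBs (left) and from EBs to EBs + RA (right). The control points lie right of the mutant points for Nes, Vim, Cdh2, Fabp7, Ncam1 and Prom1 on the left. For that change the interaction test called neither Fabp7 nor Prom1 in any mutant, nor Ncam1 in Apex1. It gave 0.31 for Fabp7 in Neil1 (FDR 0.899) and −0.60 in both Neil2 and Apex1. The plotted order of Fabp7 rests on few counts in mESCs and a prior count of 2. On the right they do so for every marker except Vim and Cdh2.

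Neil1 and Neil2 mutants were also compared with each other. None of the 7 tested markers was called at any stage by edgeR or DESeq2, and 0.0% of all genes were called by edgeR. Before adjustment, edgeR gave a p below 0.05 to 915, 735 and 1608 genes in mESCs, EBs and EBs + RA, and DESeq2 called 3, 1 and 111 genes. Among the markers an edgeR p below 0.05 before adjustment was given to Sox21 and Nes in mESCs, 0 in EBs and Msi1 in EBs + RA (−0.55, 95% interval −0.99 to −0.10). The differences in EBs + RA, Neil1 minus Neil2, ran from −0.66 for Prom1 (95% interval −1.41 to 0.08) to 0.63 for Sox21 (−0.43 to 1.69). Hes5 and Fabp7 had too few counts to be compared.

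Other early neural progenitor genes, a list of 20, were counted in the same fits. In EBs + RA they fell with the markers: 16 of 18 tested in Neil1, 15 of 19 in Neil2 and 13 of 20 in Apex1, and none rose. Of all genes tested, 19.9%, 16.6% and 10.9% were lower and 21.2%, 18.3% and 13.9% higher. With the Apex1 duplicates summed, or without 1 library, the Apex1 count went down to 8. The largest falls were those of Pou3f2, a POU transcription factor, and Rfx4 in Neil1 and Neil2. Pou3f2 had 153, 126 and 42 counts in the controls and 2 and 3 counts summed over the Neil1 and Neil2 clones, a ratio of 148 (95% counting interval 40.7 to 1229) and 102 (34.6 to 497). In Neil1 and Neil2, Pou3f2 and Rfx4 passed the filter on low counts through the controls. Rfx4, a transcription factor of the developing brain, fell by 6.50 in Neil1 (SE 0.69, FDR 0.000482), 6.36 in Neil2 (SE 0.56, FDR 0.000334) and 3.92 in Apex1 (SE 0.51, FDR 0.00225). In Apex1 it was followed by Pax6, a transcription factor of neural progenitors, which fell by 3.47 (SE 0.43, FDR 0.00197).

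In EBs without RA the same list split. In Neil1 6 genes rose (Sox2, Pax6, Zic2, Notch1, Dll1 and Rfx4) and 4 fell (Sox9, Sox11, Hes1 and Zfp521), in Neil2 4 rose and 4 fell, and in Apex1 4 rose and 3 fell. These were among 16, 17 and 16 tested. Of all genes tested, 10.4%, 8.65% and 11.9% were higher and 13.1%, 7.69% and 13.9% lower. Pax6 had 0.670, 1.09 and 0.956 CPM in control EBs and rose by 2.36 in Neil1 (FDR 0.00302) and by 2.99 in Apex1 (FDR 3.38e-05). Sox9, a factor of neural stem cells, cartilage and other tissues, fell by 3.12, 3.27 and 1.94 (FDR 0.000536, 0.00292 and 0.0108), the last one not without the first Apex1 duplicate (FDR 0.109), and Zfp521 fell by 1.79 in Neil2 (FDR 0.00232). In mESCs Pax6 was lower in each mutant (−1.43, −1.21 and −0.90, FDR 0.0811, 0.0618 and 0.0404). Sox11 was lower in Neil1 mESCs (−1.50, FDR 0.0839), gave −1.35 in Neil2 (FDR 0.144), and Zfp521 gave 1.26 in Apex1 (FDR 0.107). Each of these mESC calls was lost in at least 4 of the fits that left out 1 library.

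**Figure D4:**
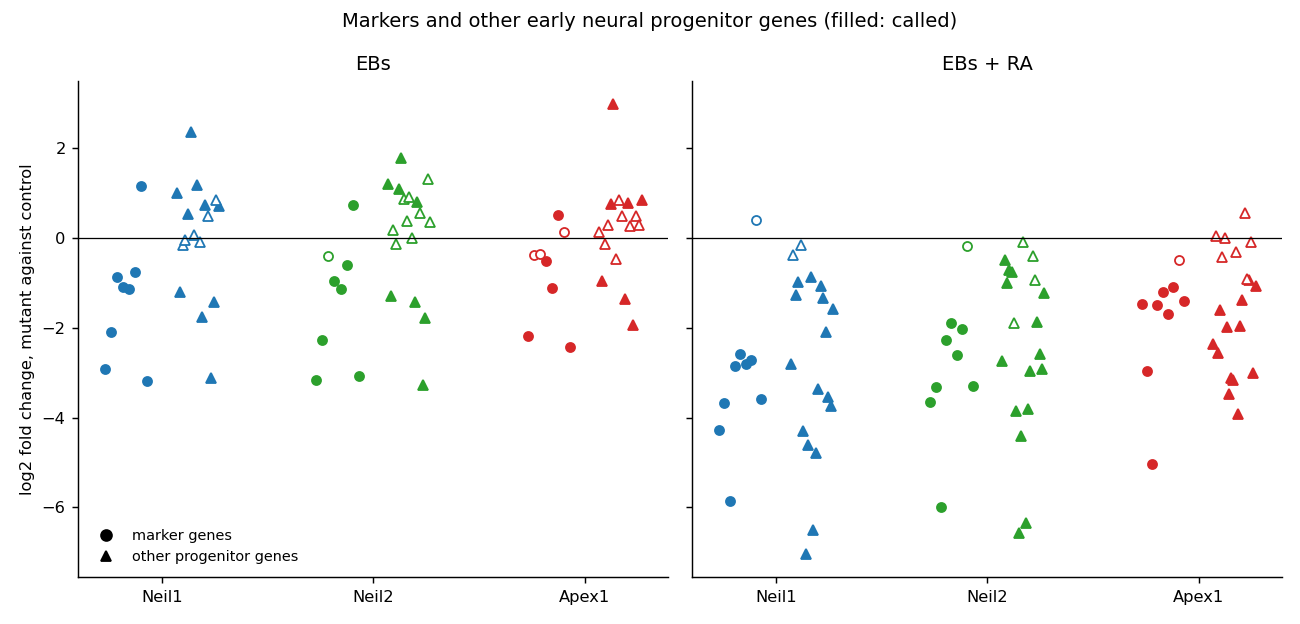
Log2 fold change against control (y axis) of the markers (circles) and of the other early neural progenitor genes (triangles) in each mutant (x axis and colour), in EBs and EBs + RA; filled points were called. In EBs the triangles lie on both sides of 0, and in EBs + RA no filled point lies above 0.

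Markers of other cell types moved with these results, and their part in them was not tested. Of all genes tested in Neil1, Neil2 and Apex1 EBs, 10.4%, 8.65% and 11.9% were higher and 13.1%, 7.69% and 13.9% lower. In EBs + RA 21.2%, 18.3% and 13.9% were higher and 19.9%, 16.6% and 10.9% lower. In EBs, 7 mesenchyme markers summed to 163 to 278 CPM in controls and to 23.7 to 37.8 CPM in Neil1, 14.8 to 42.8 CPM in Neil2 and 31.5 to 42.1 CPM in Apex1, with 5, 5 and 4 of 6 tested lower, and Lum below 1 CPM throughout. In EBs + RA they summed to 235 to 346 CPM in controls against 70.1 to 178, 37.5 to 95.9 and 173 to 232 CPM, with 4, 5 and 2 lower. The 6 pluripotency markers summed to 74.3 to 114 CPM in control EBs + RA and to 253 to 330, 172 to 491 and 489 to 619 CPM in Neil1, Neil2 and Apex1, with 5, 6 and 5 of 6 higher. In EBs they summed to 1617 to 1749.9 CPM in controls and to 2475 to 2823, 1870.2 to 2980.4 and 2877 to 2935 CPM in the mutants, with 5, 4 and 4 higher. Neuron markers in EBs + RA summed to 158 to 254 CPM in controls and 30.1 to 37.5, 28.2 to 44.0 and 43.5 to 48.0 CPM in the mutants, where 7, 7 and 6 of 7 were lower and Snap25 stayed below 1 CPM. The same list summed to 435 to 463 CPM in control mESCs, so that its sum does not by itself measure neurons. Without RA it went the other way, with 111 to 114 CPM in control EBs and 142 to 190, 103 to 203 and 142 to 144 CPM in mutant EBs. There 3, 1 and 1 of 6, 5 and 6 tested were higher and 0 lower. The 4 radial glia markers, which are also in the progenitor list, summed in EBs + RA to 136 to 241 CPM against 6.85 to 12.5, 13.0 to 22.4 and 33.1 to 37.2 CPM, with 4, 3 and 3 lower. Of 5 epithelial markers, 5, 5 and 1 were higher in EBs + RA, of 6 heart muscle markers 3, 5 and 4 were higher and 1 lower in each mutant, and of 6 visceral endoderm markers 3, 1 and 1 were higher. In a list of 5 or 6 genes, 1 call is near the share of all genes. Epithelial markers summed to 1131 to 1869 CPM in control EBs + RA and to 2834 to 4797, 2232 to 2713 and 1371 to 1477 CPM in the mutants. The heart muscle sums were 9.82 to 17.3 CPM in controls and 14.4 to 24.7 CPM over the mutants, and the endoderm sums 42.8 to 249 and 65.2 to 446 CPM. Control mESCs had a heart muscle sum of 53.4 to 84.4 CPM, with Tnnt2, Actc1 and Nkx2-5 below 1 CPM. That sum thus does not by itself measure heart muscle. In EBs, 5 of the 6 endoderm markers were lower in Apex1 (55.2 to 73.3 CPM against 200.1 to 552 CPM in controls) and 0 called in Neil1 and Neil2.

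Across the 33 libraries the markers did not follow 1 shared pattern. Pearson correlations of log2 CPM, given as a description over libraries that share stage and genotype, were highest for Cdh2 with Fabp7 (0.87) and for Vim with Ncam1 (0.85), while Prom1 and Ncam1 gave 0.01. Sox21 correlated negatively with all 8 other markers, from −0.50 with Fabp7 to −0.00345 with Ncam1. Among the 11219 genes whose log2 CPM averaged 2 or more, the one most like Cdh2 was Cd24a (0.95), a surface glycoprotein, followed by Rnd3 and Ccdc8 (both 0.93). Marcks (0.92), Fam33a (0.92) and Epha7 (0.90) were most like Nes. Fads1 (0.94), Slc25a23 (0.92) and Tead2 (0.91) were most like Msi1, and Scd2 (0.90), Gap43 (0.88) and Ncam1 (0.85) most like Vim. For Hes5 they were Tmtc4 (0.90), Nudt3 and Gnaq (both 0.87), and for Prom1 Ado, Hey1 and Fign (all 0.89). Fabp7 was closest to Tbpl1, Khdrbs1 (both 0.88) and Cd24a (0.87), and Ncam1 to Lix1l, Lrp1 and Pcolce (all 0.88). Sox21 had the weakest neighbours, Dolpp1 (0.75), Pdpk1 (0.74) and Tulp4 (0.72).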

How the data were processed

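RNA-seq libraries of E14TG2a mESC lines were grouped by the stage and genotype in the labels. The authors prepared unstranded TruSeq libraries, sequenced 51 cycles, aligned the reads to NCBIM37, and used HTSeq-count for a table of reads per gene. The deposited values are raw counts that were not normalized. The submitters' processing notes name TopHat2 version 2.0.9, Bowtie2 version 2.1.0 and HTSeq version 0.5.4, and the strand setting of counting is not given in the sources used here. Reads aligned to several places (11.4% to 19.9%) were set aside by the counter.

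Counts were compared with edgeR version 4.0.16 (R version 4.3.3, limma version 3.58.1): filterByExpr, TMM scaling, the robust quasi-likelihood test and Benjamini-Hochberg adjustment over all genes tested. The study's limits were used for a call: an FDR (adjusted p) under 0.1 with a log2 fold change beyond 0.5 in either direction. SE was derived from the same fit, as the absolute log2 fold change divided by the square root of the test's F statistic. The 95% intervals are symmetric and use this SE with the t distribution. Log2 CPM used a prior count of 2. Exon lengths, names and positions are from the NCBIM37 annotation, which names 37205 of 37991 rows. The edgeR fit was tested on simulated data for Neil1 and Apex1 against control in EBs + RA. It was also tested for the RA response of control EBs and for its difference between Neil1 and control. Other comparisons and the alternative fits were not simulated.

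The replicates were 3 independent clones per genotype, and for Apex1 technical duplicates. No pair of libraries in a group was a copy (chi-squared per degree of freedom 5.94 to 137). Stage comparisons share clones and were also fitted with the clone as a block. Deviations of same-clone control EBs and EBs + RA correlated at 0.33 to 0.42. For same-clone mESCs and EBs the correlations were −0.22 to 0.19 in control, −0.06 to 0.06 in Neil1 and −0.49 to 0.07 in Neil2. The data thus did not bear out a pairing of mESCs with EBs by clone. The block and the fits without a clone at both stages rest on that pairing for the change from mESCs to EBs. Between genotypes the numbers paired the libraries by the data for Neil1 and control EBs + RA alone (0.22 to 0.31), where the block changed no call of a marker.

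Alternatives were DESeq2 version 1.42.0 (Wald test), RLE size factors, no filter, at least 10 counts in every library, an FDR below 0.05, the replicate block, all genotypes in 1 fit, the Apex1 duplicates summed, and each library left out. In comparisons across stages a clone or duplicate was left out at both stages. The markers and lists were chosen with earlier results of these data known. Named besides the markers were the 3 genes most correlated with each and the 2 progenitor genes with the largest change in each comparison of a mutant with control. Figures and tables used Python version 3.11.15, pandas version 2.3.3, scipy version 1.17.1 and matplotlib version 3.10.9.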

Additional observations from a re-analysis of the deposited data

Results flagged for a closer look

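The changes below differed between a mutant and control by the test of the difference itself, the interaction term in edgeR with Benjamini-Hochberg adjustment, and each value is a difference of log2 changes, mutant minus control. From mESCs to EBs, the change of Nes differed by −1.78 in Neil1, −1.40 in Neil2 and −1.67 in Apex1, that of Vim by −3.36, −3.05 and −2.06, and that of Cdh2 by −2.83, −2.83 and −3.56. Ncam1 differed by −0.76 in Neil1 and −0.80 in Neil2, Sox21 by 1.08 in Neil2 and Msi1 by 0.89 in Apex1. In the response to RA, Hes5 differed by −6.66 in Neil1, −7.28 in Neil2 and −5.38 in Apex1, Msi1 by −1.95, −1.87 and −1.14, and Prom1 by −1.96, −1.45 and −1.63. Nes differed by −1.67 in Neil1 and −1.49 in Neil2, Cdh2 by −1.34 in Neil1, Ncam1 by −1.47 in Neil1 and −0.70 in Apex1, and Fabp7 by −2.61 in Apex1. The Ncam1 value in Apex1 had an FDR of 0.0985 and was called in 0 of the 5 fits that left out a clone or duplicate. The 3 mutants share their controls, so these values do not support one another. Groups of 2 or 3 libraries were not searched for outlying samples.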

How the results depend on the processing

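No value of a marker changed direction in a called comparison under any alternative. With RLE size factors all 161 values kept their call, and with DESeq2 157 of 161 did, the other 4 gaining one. The number of markers called in EBs + RA stayed at 8 for Neil1 and Neil2 in all settings that left out 1 library, and ran from 6 to 9 for Apex1. In Neil1 mESCs it went from 0 to 1 with DESeq2 and with all genotypes in 1 fit, and from 0 to 2 when 1 library was left out. In Neil2 mESCs it ran from 0 to 1 without 1 library, in Neil2 EBs from 4 to 8, and in Neil2 for the change from mESCs to EBs from 3 to 5 without 1 clone at both stages. In Apex1 mESCs it was 3, went to 0 with the duplicates summed and ran from 0 to 4 without 1 library, and in Apex1 EBs from 3 to 5. For the RA response of Apex1 it was 5, went to 2 with at least 10 counts in every library, where 7 markers were tested, and to 2 with an FDR below 0.05, and ran from 0 to 8 without 1 clone or duplicate at both stages. The cause was not tested. For the other progenitor genes, the count in Neil1 mESCs went from 3 to 0 with an FDR below 0.05 or the block, that in Apex1 EBs + RA from 13 to 8 with the duplicates summed, and that for the RA response of Apex1 from 11 to 7 with at least 10 counts and from 3 to 16 without 1 clone or duplicate. The count of these genes rose from 1 to 3 in Neil2 mESCs with DESeq2 or the block, and from 1 to 5 in Apex1 mESCs with the block. Over all genes, DESeq2 called 1044 in Neil1 and 819 in Neil2 mESCs, where edgeR called 283 and 286.

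With the replicate block, 149 of 161 marker values kept their call, 5 lost and 7 gained one. Where numbers are shared without the same clone, the block left 5 markers called in Neil2 EBs in place of 7, since Sox21 (FDR 0.242) and Prom1 (FDR 0.115) missed the limit. For Apex1, where the block pairs technical duplicates with clones, Prom1 in mESCs (FDR 0.00267), Sox21 in EBs + RA (FDR 0.0183), and Vim (FDR 0.00169) and Cdh2 (FDR 0.0064) in the RA response passed. Depth limits Hes5 and Fabp7, which rest on at most 11 counts per mutant library in EBs + RA.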
